A study of Homo sapiens with 12 samples.

Results

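The genes described here were 194 long noncoding RNAs with signal in LNCaP, an androgen-sensitive human prostate adenocarcinoma line, out of 10265 genes tested on the arrays. They were chosen by name and by level: the probe set carried 1 gene symbol of the form LINC (long intergenic noncoding RNA), -AS (antisense RNA), SNHG (small nucleolar RNA host gene) or PCAT (prostate cancer associated transcript), or was MALAT1, NEAT1, PCA3 or DLEU2, and its log2 signal exceeded 4 on 3 or more of the 12 arrays. By name alone 1640 genes matched, so 1446 stayed below that level. The 194 members were 131 antisense RNAs, 56 LINC RNAs, 3 SNHG genes (SNHG17, SNHG19 and SNHG32), 2 PCAT genes (PCAT6 and PCAT7), MALAT1 and DLEU2. PCA3 did not reach the level, and the probe sets of NEAT1 carried more than 1 symbol in the platform table, so neither is among them.

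The study crossed an siRNA with a hormone in 4 groups of 3 arrays each: SRF siRNA with R1881, SRF siRNA with ethanol vehicle, control siRNA with R1881, and control siRNA with ethanol vehicle. All cells were kept without androgen for 48 h and transfected, and 42 h later received 5 nM R1881, a synthetic androgen, or vehicle for 48 h. SRF is serum response factor, a transcription factor that binds CArG boxes and works with actin-sensing cofactors. The labels call the 3 arrays of a group biological replicates without saying whether they were separate cultures, so each p-value reflects array-to-array spread, which may be technical, and all results concern 1 cell line. The series asked which genes depend on both SRF and androgen.

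Long noncoding RNAs are transcripts without a long protein-coding frame. Some stay in the nucleus and are part of nuclear bodies, as MALAT1 is of nuclear speckles, where splicing factors gather. Others are read from the opposite strand of a protein-coding gene, often from a shared start region, and several are the precursors of small RNAs that lie in their introns. In prostate cells the androgen receptor controls a number of such transcripts, and LINC00844 and PART1 are described as androgen-regulated.

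SRF itself was checked first. On its expressed probe set the log2 signal was 4.89, 4.98 and 4.73 with SRF siRNA and R1881 and 4.56, 5.06 and 4.58 with SRF siRNA and vehicle, against 6.50, 6.25 and 6.16 with control siRNA and R1881 and 5.91, 6.14 and 6.17 with control siRNA and vehicle. Every array of SRF siRNA lay below every array of control siRNA. Array medians ran from 2.97 to 3.06 and 37.3% to 38.0% of probe sets were above 4. All 8 luminal epithelial markers with a probe set were above 4 on 3 or more arrays. So were 0 of 3 basal, 0 of 5 leukocyte and 2 of 6 fibroblast markers (COL1A1 and COL3A1). The leukocyte marker LYZ was above 4 on 1 array. It averaged 4.03 with R1881 and 2.84 with vehicle under SRF siRNA, and 2.89 and 2.84 under control siRNA. Of the fibroblast markers, COL3A1 averaged 4.07 with R1881 and 7.91 with vehicle under SRF siRNA, and 2.97 and 6.45 under control siRNA. COL1A1 averaged 5.69 with R1881 and 5.56 with vehicle under SRF siRNA, and 6.02 and 5.70 under control siRNA, while COL1A2, DCN, LUM and PDGFRB were below 4 on every array. The part of these markers in the results was not tested. Since these are bulk samples, fewer cells of a type and less RNA per cell cannot be told apart.

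The start regions of a few members are shown first, because the design turns on a hormone receptor and on SRF, each of which binds a known motif. RefSeq promoters on GRCh38.p14, from 250 bases before to 50 bases after the start, were matched for 158 of the 194 members. The full androgen response element, an inverted repeat of AGAACA around a 3-base spacer, was in 0 of these 158 and in 1 of 27305 promoters in the table. The 6 letters AGAACA alone, on either strand and also inside a full element, were in 16 of the 158 (10.1%), against 8.56% of the 8514 promoters of genes tested and 14.9% of all promoters. The CArG box, searched by its standard pattern, was in 1 of the 158, that of SNHG32 (0.633%), against 0.963% of promoters of genes tested and 1.29% of all. Capitals mark AGAACA in LINC00844 (chr10:58999268-58999567, plus strand) and in LINC00161 (chr21:28539068-28539367, plus strand), the members with the most negative SRF siRNA changes in R1881, and the CArG box in SNHG32 (chr6:31834666-31834965, plus strand). IDH1-AS1 (chr2:208254983-208255282, plus strand), which starts 775 bases from the start of IDH1, holds none of these letters in its window and is shown because the 2 genes moved in opposite directions with SRF siRNA.
LINC00844: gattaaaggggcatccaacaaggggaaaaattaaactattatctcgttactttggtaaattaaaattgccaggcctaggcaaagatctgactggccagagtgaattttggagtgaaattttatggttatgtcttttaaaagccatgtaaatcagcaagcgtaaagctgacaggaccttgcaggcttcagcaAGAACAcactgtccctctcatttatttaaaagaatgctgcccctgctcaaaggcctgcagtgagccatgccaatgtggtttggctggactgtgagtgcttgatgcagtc
LINC00161: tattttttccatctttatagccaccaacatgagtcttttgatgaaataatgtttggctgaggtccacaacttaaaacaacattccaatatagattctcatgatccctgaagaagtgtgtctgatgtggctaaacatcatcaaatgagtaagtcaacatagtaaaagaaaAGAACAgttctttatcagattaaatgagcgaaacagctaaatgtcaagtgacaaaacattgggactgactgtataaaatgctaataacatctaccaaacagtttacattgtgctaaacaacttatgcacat
SNHG32: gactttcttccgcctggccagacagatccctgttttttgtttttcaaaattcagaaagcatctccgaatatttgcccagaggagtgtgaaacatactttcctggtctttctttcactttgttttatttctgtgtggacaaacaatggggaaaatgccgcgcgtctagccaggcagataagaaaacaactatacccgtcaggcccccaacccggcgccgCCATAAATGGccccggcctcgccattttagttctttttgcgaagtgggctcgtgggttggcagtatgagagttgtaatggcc
IDH1-AS1: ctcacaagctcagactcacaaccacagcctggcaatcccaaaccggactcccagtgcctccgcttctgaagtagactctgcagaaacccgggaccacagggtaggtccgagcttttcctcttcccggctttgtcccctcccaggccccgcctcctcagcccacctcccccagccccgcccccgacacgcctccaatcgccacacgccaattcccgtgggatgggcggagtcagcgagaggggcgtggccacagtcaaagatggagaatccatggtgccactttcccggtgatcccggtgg
These matches describe the letters of the windows and say nothing about binding.

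Of the 194 members, 138 were above 4 on all 12 arrays and 56 on 3 to 11 arrays. A total of 161 had 1 passing probe set and 33 had 2 or more, and the brightest on average stood for the gene. RefSeq placed 192 of them on 23 chromosomes, with 22 on the chromosome that held most. The pooled SD between arrays of a group had a median of 0.18 log2 units over the members and 0.12 over all genes tested. Just inside the level, by their third-highest array, were FUT8-AS1 at 4.03, LINC02693 at 4.08 and LINC00685 at 4.12. Just outside were GATA6-AS1 at 3.99, PSMD6-AS2 at 3.99 and TAF1A-AS1 at 3.98. Several members would not have passed without the arrays of a certain group. These were 8 for control siRNA with R1881 (LINC00844 and MBNL1-AS1 included) and 4 for SRF siRNA with vehicle (LINC00965 included), among others. DMTF1-AS1, NDUFB2-AS1, NOP14-AS1 and PNISR-AS1 count for 2 groups each, so they were above 4 in more than 1 group. A gene above 4 in 1 group alone, as LINC00844, MBNL1-AS1 and LINC00965 were, had to differ between groups to be a member. Counts over the members are therefore descriptions.

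R1881 moved members in both directions, and the largest changes were those of LINC00844, upwards, and PEG3-AS1, downwards, both under control siRNA. With limma and Benjamini-Hochberg adjustment over all genes tested, genes below an adjusted p of 0.05 count as called. Under SRF siRNA R1881 changed 70 of the 194 members, or 36.1%, where 53.1% of all genes were called. Of these, 22 rose and 48 fell (25.5% and 27.7% of all genes). After quantile normalization the split was 27 that rose and 38 that fell. Under control siRNA R1881 changed 101 members, or 52.1%, where 60.6% of all genes were called, with 51 that rose and 50 that fell (26.9% and 33.8% of all genes). The median change was -0.07 over the members and -0.03 over all genes under SRF siRNA, and 0.00 and -0.05 under control siRNA. At 2-fold or more, 7 members rose and 12 fell under SRF siRNA (5.56% and 5.1% of all genes), and 13 rose and 14 fell under control siRNA (7.08% and 7.06%). In all these were 19 and 27 members, where 10.7% and 14.1% of all genes were called.

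The 2 R1881 comparisons share no arrays. Of the members, 57 were called in both, which is 81.4% of those under SRF siRNA and 56.4% of those under control siRNA. They had the same direction in 55 cases, 20 higher and 35 lower, and opposite directions for FOXN3-AS1 and LINC00963, of which FOXN3-AS1 is named because of this count. Over all genes 4260 were called in both, or 78.1% and 68.4%. Of these, 4099 had the same direction, 1877 higher and 2222 lower, and 161 opposite directions. Across members the changes correlated at r = 0.734 (n = 194), against 0.804 across all 10265 genes; genes of 1 sample set are not independent, and the value is a description.

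RNA integrity, read as the 3-prime minus the 5-prime GAPDH control signal, was 0.49 ± 0.14 with R1881 and 0.36 ± 0.04 with vehicle under SRF siRNA, and 0.46 ± 0.02 and 0.14 ± 0.09 under control siRNA (mean ± SD of 3 arrays; two-sided exact permutation tests gave p = 0.3 and 0.1, and 3 against 3 arrays allow none below 0.1). With this measure as a covariate, an alternative added after seeing the data, 50 members were called for R1881 under control siRNA, where 38.2% of all genes were called, and 67 under SRF siRNA, where 46.9% were. The same measure on ACTB was 1.81 ± 0.35 with R1881 and 1.69 ± 0.14 with vehicle under SRF siRNA, and 1.50 ± 0.02 and 1.37 ± 0.12 under control siRNA (exact permutation p = 0.7 and 0.2).

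**Figure D1:**
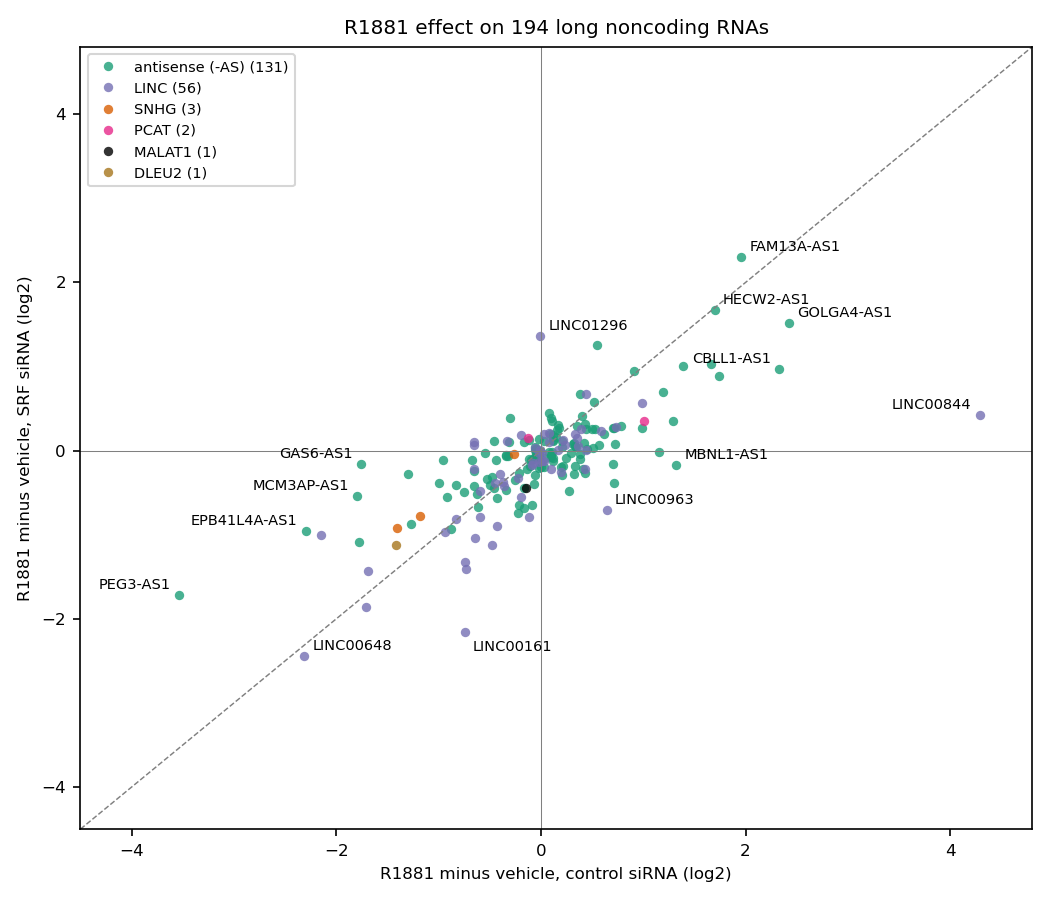
Log2 change by R1881 under SRF siRNA (vertical axis) against that under control siRNA (horizontal axis) for the 194 members, coloured by class, with the line of equality dashed. LINC00844 lies far to the right near 0 on the vertical axis (4.29 and 0.42), while FAM13A-AS1 and LINC00648 lie near the line.

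LINC00844 is an intergenic RNA on chromosome 10 (58999518 to 59001617). Its log2 signal was 2.88, 3.02 and 3.42 with R1881 and 2.85, 2.65 and 2.56 with vehicle under SRF siRNA. Under control siRNA it was 7.05, 7.09 and 7.11 with R1881 and 2.64, 2.85 and 2.90 with vehicle. Only the control siRNA arrays with R1881 stood above 4, and the other 9 lay where probe sets without signal lie, so the size of the change depends on the background estimate. It is a member only through those 3 arrays and so had to differ: its change of 4.29 under control siRNA, and the difference of -3.86 between the R1881 effects, are given as descriptions with no test. Under SRF siRNA the change was 0.42 ± 0.13 (SE, limma adjusted p = 0.0153), a call that was lost without SRF siRNA vehicle replicate 3 (0.36, adjusted p = 0.0597) and without SRF siRNA R1881 replicate 3 (0.27, adjusted p = 0.0561), and with the GAPDH covariate (0.22, adjusted p = 0.127).

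Among the antisense RNAs that rose with R1881, FAM13A-AS1 rose under both siRNAs. It is read from the strand opposite FAM13A. Its signal was 6.37, 6.41 and 6.55 with R1881 and 4.52, 3.99 and 3.93 with vehicle under SRF siRNA, and 6.53, 6.44 and 6.45 with R1881 and 4.88, 4.44 and 4.23 with vehicle under control siRNA. In both settings all R1881 arrays lay above all vehicle arrays. The rises were 2.30 ± 0.17 and 1.96 ± 0.17 (SE, limma adjusted p = 3.25e-07 and 9.41e-07), and their difference of 0.34 ± 0.24 (SE) did not pass the test (limma adjusted p = 0.343). HECW2-AS1, the antisense RNA of a ubiquitin ligase gene, rose by 1.67 ± 0.23 under SRF siRNA and by 1.70 ± 0.23 under control siRNA (SE, limma adjusted p = 6.22e-05 and 3.91e-05). The difference of its rises depended on values near background. It was -0.03 as measured (limma adjusted p = 0.96) and -0.90 with values under 4 set to 4 (adjusted p = 0.0144).

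CBLL1-AS1 and GOLGA4-AS1 rose under both siRNAs but by different amounts. CBLL1 encodes the ubiquitin ligase Hakai and GOLGA4 a golgin of the trans-Golgi network. CBLL1-AS1 was at 4.97, 4.96 and 4.93 with R1881 and 3.33, 4.45 and 4.18 with vehicle under SRF siRNA, and at 6.30, 6.83 and 6.43 with R1881 and 3.97, 4.46 and 4.14 with vehicle under control siRNA. R1881 arrays lay above vehicle arrays in both settings, and those with control siRNA were the highest of the 12. Its rise was 0.97 ± 0.24 under SRF siRNA and 2.33 ± 0.24 under control siRNA, a difference of -1.37 ± 0.34 (SE, limma adjusted p = 0.0123, and 0.0561 with the GAPDH covariate). GOLGA4-AS1 was at 5.40, 6.01 and 5.64 with R1881 and 4.53, 3.86 and 4.11 with vehicle under SRF siRNA, and at 7.76, 7.89 and 7.78 with R1881 and 5.42, 5.27 and 5.48 with vehicle under control siRNA. Its rises of 1.52 ± 0.17 and 2.42 ± 0.17 differed by -0.90 ± 0.24 (SE, limma adjusted p = 0.017), which fell short without a filter on low values (adjusted p = 0.0528) and with the GAPDH covariate (0.0715).

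ZNF232-AS1, opposite a zinc finger gene, rose by 0.88 ± 0.16 under SRF siRNA and by 1.74 ± 0.16 under control siRNA, with a difference of -0.86 ± 0.23 (SE, limma adjusted p = 0.0169). That call was lost without a filter on low values (adjusted p = 0.0509), with the mean of its probe sets (-0.65, 0.052) and with the GAPDH covariate (-0.78, 0.0805). On its dimmest probe set the rises were 0.11 and 0.55 and the difference -0.44, none called. MBNL1-AS1, opposite the gene of a splicing regulator, was above 4 in control siRNA cells with R1881 alone, at 4.92, 4.82 and 5.26. Its other arrays ran from 2.82 to 3.97. It too is a member only through those 3 arrays, so its changes of -0.18 under SRF siRNA and 1.32 under control siRNA, and their difference of -1.50, are descriptions. With the GAPDH covariate the change under control siRNA was 0.50, again as a description. LINC01296 rose under SRF siRNA, where it was at 8.30, 8.27 and 8.40 with R1881 and 6.97, 6.83 and 7.08 with vehicle. Under control siRNA it was at 7.30, 7.41 and 7.15 with R1881 and 7.41, 7.12 and 7.35 with vehicle, which overlap. The changes were 1.36 ± 0.10 and -0.01 ± 0.10, and the difference was 1.37 ± 0.14 (SE, limma adjusted p = 3.73e-05).

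PEG3-AS1 had the largest fall with R1881. PEG3 is an imprinted zinc finger gene expressed from the paternal allele. PEG3-AS1 was at 6.81, 6.92 and 6.34 with R1881 and 8.28, 8.47 and 8.46 with vehicle under SRF siRNA, and at 5.22, 5.15 and 5.25 with R1881 and 8.97, 8.61 and 8.65 with vehicle under control siRNA. Vehicle arrays were high under both siRNAs, and control siRNA arrays with R1881 were the lowest of all. It fell by 1.72 under SRF siRNA and by 3.54, or 11.6-fold, under control siRNA (SE 0.14 each, limma adjusted p = 7.25e-07 and 8.19e-10), with a difference of 1.82 ± 0.20 (SE, adjusted p = 5.36e-05).

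EPB41L4A-AS1, whose intron hosts a small nucleolar RNA, showed the same order. It was at 8.94, 8.82 and 8.96 with R1881 and 9.84, 9.91 and 9.84 with vehicle under SRF siRNA, and at 7.62, 7.77 and 7.88 with R1881 and 10.04, 10.13 and 9.99 with vehicle under control siRNA. It fell by 0.96 and by 2.30 (SE 0.08 each, limma adjusted p = 7.48e-07 and 2.37e-10), and the difference was 1.34 ± 0.11 (SE, adjusted p = 6.69e-06). On its dimmer probe set the difference was -0.05 (limma adjusted p = 0.891). GAS6-AS1, opposite the gene of a ligand of the TAM receptors, was at 7.46, 7.13 and 7.48 with R1881 and 7.57, 7.51 and 7.48 with vehicle under SRF siRNA, which overlap. Under control siRNA it was at 5.92, 5.51 and 5.60 with R1881 and 7.49, 7.26 and 7.55 with vehicle. It fell by 1.76 under control siRNA (SE 0.12, limma adjusted p = 1.49e-07), with a difference of 1.59 ± 0.18 (SE, adjusted p = 6.26e-05), while its dimmer probe set gave -0.12 for the fall (adjusted p = 0.597) and -0.16 for the difference (adjusted p = 0.716).

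MCM3AP-AS1, opposite the gene of an mRNA export factor, fell by 0.54 under SRF siRNA and by 1.79 under control siRNA, and LINC00623 fell by 1.01 and by 2.15. Both differences passed the test, at 1.25 ± 0.11 and 1.14 ± 0.16 (SE, limma adjusted p = 1.19e-05 and 0.000288). LINC00648, LINC01138 and LINC00869 fell by similar amounts under both siRNAs. LINC00648 was at 5.44, 5.27 and 6.05 with R1881 and 7.98, 7.91 and 8.21 with vehicle under SRF siRNA, and at 5.22, 4.79 and 5.52 with R1881 and 7.95, 7.43 and 7.10 with vehicle under control siRNA. Its falls were -2.44 and -2.32, those of LINC01138 -1.86 and -1.71, and those of LINC00869 -1.43 and -1.69. None of their differences passed the test (-0.13 ± 0.35, -0.15 ± 0.13 and 0.26 ± 0.28, SE, limma adjusted p = 0.834, 0.447 and 0.543), which does not show that the effects are equal. The probe set of LINC00623 is of a kind (_x_at) that may match several transcripts, so its assignment is uncertain.

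**Figure D2:**
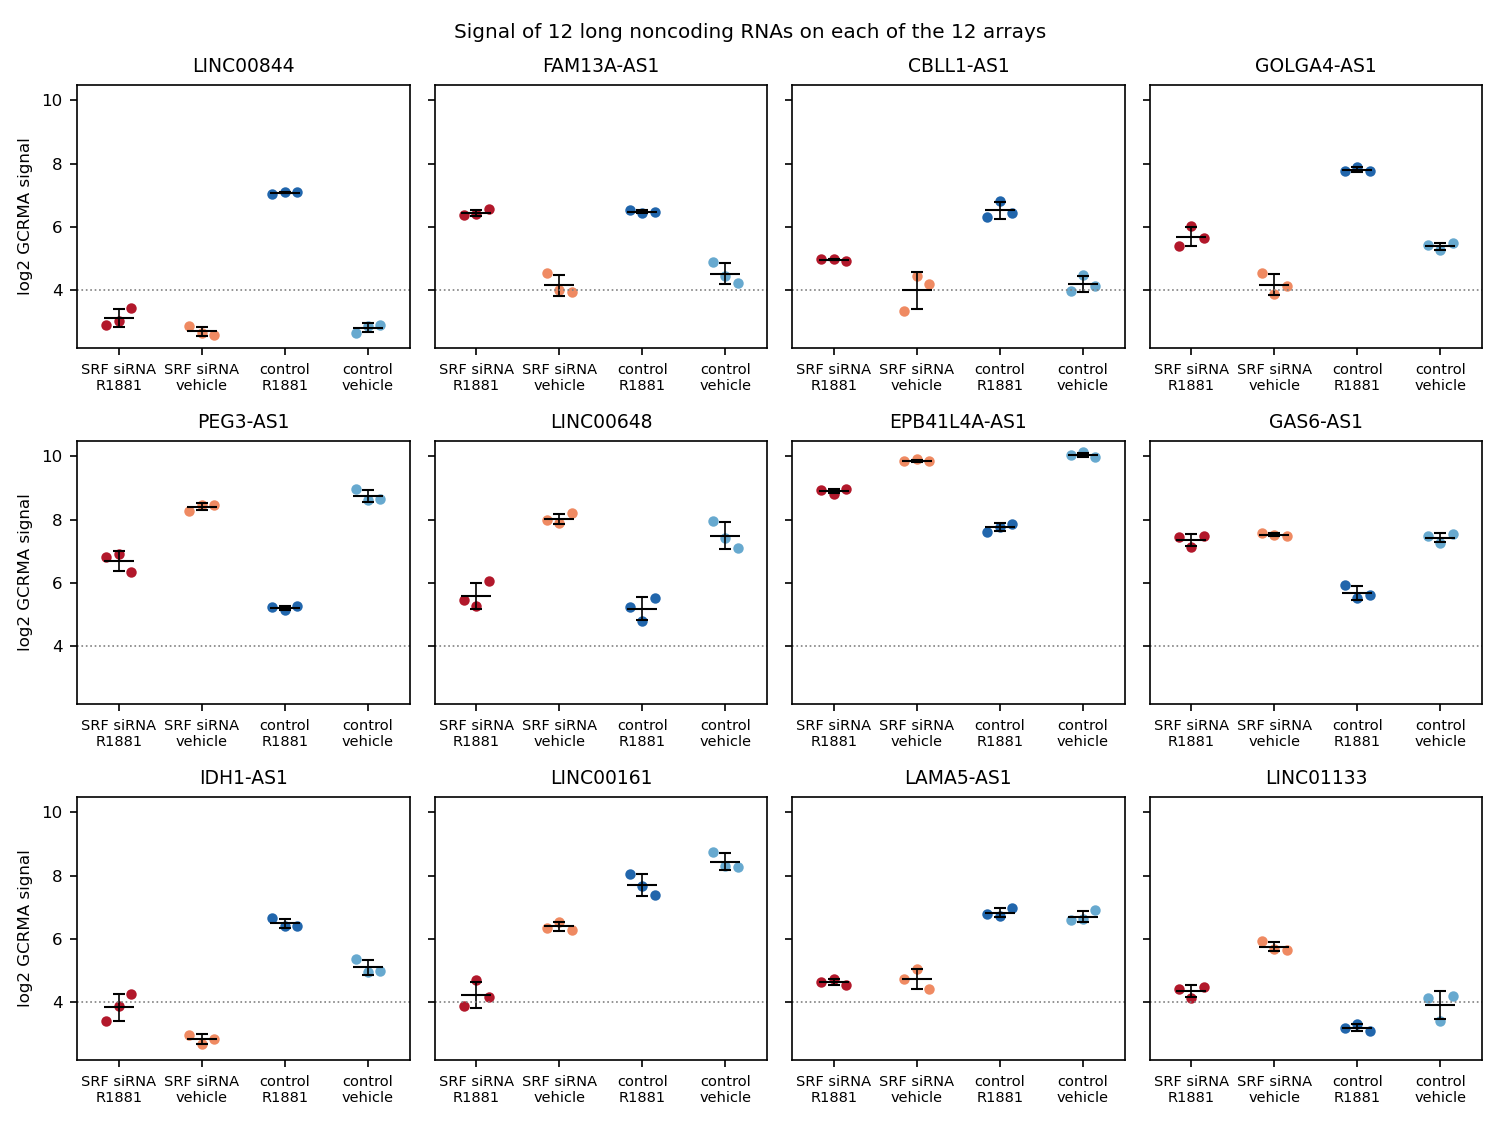
Log2 GCRMA signal of 12 named members on each array, by group from left to right (SRF siRNA with R1881, SRF siRNA with vehicle, control siRNA with R1881, control siRNA with vehicle), with bars for the mean and SD of 3 arrays and a dotted line at 4. LINC00844 is above the line on the 3 control siRNA arrays with R1881, and IDH1-AS1, LINC00161 and LAMA5-AS1 are lower with SRF siRNA under both treatments.

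By class, of the 56 LINC RNAs, 5 rose and 18 fell with R1881 under SRF siRNA, and 13 rose and 20 fell under control siRNA. Of the 131 antisense RNAs, 17 rose and 26 fell under SRF siRNA, and 37 rose and 26 fell under control siRNA. Of the 3 SNHG genes, 2 fell under SRF siRNA and all 3 under control siRNA. Over all genes 25.5% rose and 27.7% fell under SRF siRNA, and 26.9% rose and 33.8% fell under control siRNA.

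The R1881 effect itself differed between the siRNAs for 37 members, or 19.1%, where 23.8% of all genes were called. The difference (SRF siRNA minus control siRNA) was positive for 12 and negative for 25 (13.2% and 10.5% of all genes), and its median was -0.08 over the members and 0.03 over all genes. A difference of 2-fold or more was called for 14 members, 7 each way, where 5.01% of all genes were called (2.59% positive and 2.42% negative). With the GAPDH covariate 23 members were called, where 18.6% of all genes were. Among antisense RNAs 7 differences were positive and 19 negative, and among LINC RNAs 3 and 5. LINC00963 went in opposite directions. It is a LINC RNA on chromosome 9 described in prostate cancer progression. It was at 5.54, 5.52 and 5.59 with R1881 and 6.26, 6.32 and 6.18 with vehicle under SRF siRNA, and at 6.18, 6.38 and 5.87 with R1881 and 5.26, 5.61 and 5.63 with vehicle under control siRNA. Neither pair overlapped. It fell by 0.71 under SRF siRNA and rose by 0.64 under control siRNA (SE 0.13 each, limma adjusted p = 0.000551 and 0.000864), with a difference of -1.35 ± 0.18 (SE, adjusted p = 0.000236). On its dimmest passing probe set the values were -0.21, 0.07 and -0.28, none called (limma adjusted p = 0.0704, 0.522 and 0.148), and with the GAPDH covariate the rise was 0.55 (adjusted p = 0.104).

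SRF siRNA changed more members downwards than upwards under both treatments. In vehicle it changed 83 members, or 42.8%, where 55.7% of all genes were called, with 28 that rose and 55 that fell (30.7% and 25% of all genes). In R1881 it changed 97 members, or 50%, where 59% of all genes were called, with 26 that rose and 71 that fell (33.6% and 25.4% of all genes). The median change was -0.08 over the members and 0.04 over all genes in vehicle, and -0.12 and 0.06 in R1881. At 2-fold or more, 5 rose and 18 fell in vehicle (5.09% and 4.19% of all genes), and 8 rose and 19 fell in R1881 (6.71% and 4.9%). Together these were 23 and 27 members, where 9.28% and 11.6% of all genes were called. Of the 131 antisense RNAs 15 rose and 36 fell in vehicle, and 15 rose and 51 fell in R1881. Of the 56 LINC RNAs 12 rose and 18 fell in vehicle, and 9 rose and 18 fell in R1881.

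The 2 SRF siRNA comparisons share no arrays either. The members called in both numbered 60, which is 61.9% of those in R1881 and 72.3% of those in vehicle. They had the same direction in 57 cases, 14 higher and 43 lower, and opposite directions for LINC00623, LINC00963 and LINC01296. The change of LINC01296 in vehicle (-0.33, limma adjusted p = 0.0135) lost its call without control siRNA vehicle replicate 1 or SRF siRNA vehicle replicate 2 (-0.27 each). Over all genes 4231 were called in both, or 69.8% and 74%. Of these, 3956 had the same direction, 2260 higher and 1696 lower, and 275 opposite directions. Across members the changes correlated at r = 0.679 (n = 194), against 0.705 across all genes, as a description. The GAPDH 3-prime to 5-prime difference was 0.49 ± 0.14 with SRF siRNA and 0.46 ± 0.02 with control siRNA in R1881, and 0.36 ± 0.04 and 0.14 ± 0.09 in vehicle (mean ± SD of 3 arrays; two-sided exact permutation tests gave p = 0.8 and 0.1). On ACTB it was 1.81 ± 0.35 with SRF siRNA and 1.50 ± 0.02 with control siRNA in R1881, and 1.69 ± 0.14 and 1.37 ± 0.12 in vehicle (exact permutation p = 0.1 each, the smallest possible). With the GAPDH covariate 98 members were called in R1881 and 59 in vehicle, where 58.9% and 38.4% of all genes were; the part of ACTB was not tested.

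**Figure D3:**
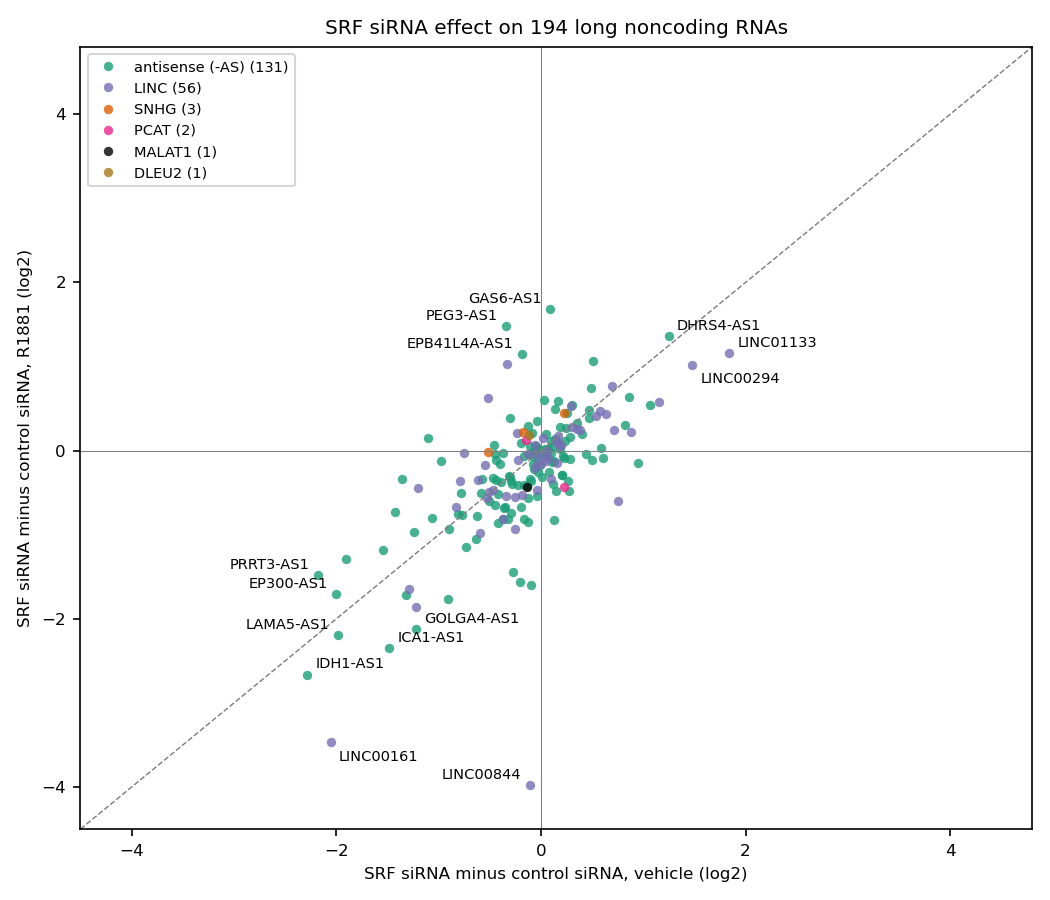
Log2 change by SRF siRNA in R1881 (vertical axis) against that in vehicle (horizontal axis) for the 194 members, coloured by class, with the line of equality dashed. IDH1-AS1 and LINC00161 lie at the lower left, LINC01133 and DHRS4-AS1 at the upper right, and LINC00844 below 0 on the vertical axis (-3.98 and -0.11).

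LINC00161, an intergenic RNA on chromosome 21 (28539318 to 28540355), fell with SRF siRNA and with R1881. It was at 3.87, 4.68 and 4.14 with SRF siRNA and R1881 and 6.35, 6.54 and 6.28 with SRF siRNA and vehicle, against 8.05, 7.66 and 7.38 with control siRNA and R1881 and 8.75, 8.31 and 8.28 with control siRNA and vehicle. The 3 arrays with both SRF siRNA and R1881 were the lowest, and the groups with SRF siRNA did not overlap those with control siRNA. With SRF siRNA it fell by 3.47, or 11.1-fold, in R1881 and fell by 2.06 in vehicle (SE 0.21 each, limma adjusted p = 7.74e-08 and 6.64e-06). With R1881 it fell by 2.16 under SRF siRNA and fell by 0.75 under control siRNA (adjusted p = 3.72e-06 and 0.00877), and the difference was -1.41 ± 0.30 (SE, adjusted p = 0.00503). With the GAPDH covariate the R1881 change under control siRNA was -0.54 and lost its call (limma adjusted p = 0.333).

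IDH1-AS1 lies beside IDH1, which encodes the cytosolic NADP-dependent isocitrate dehydrogenase. It was at 3.38, 3.85 and 4.24 with SRF siRNA and R1881 and 2.96, 2.66 and 2.83 with SRF siRNA and vehicle, against 6.66, 6.41 and 6.40 with control siRNA and R1881 and 5.37, 4.95 and 4.98 with control siRNA and vehicle. Every control siRNA array lay above every SRF siRNA array. With SRF siRNA it fell by 2.66, or 6.34-fold, in R1881 and fell by 2.28 in vehicle (SE 0.19 each, limma adjusted p = 2.3e-07 and 1.11e-06). R1881 raised it by 1.01 and by 1.39 (adjusted p = 0.000723 and 4.33e-05). With values under 4 set to 4, the rise under SRF siRNA was 0.08 and lost its call (adjusted p = 0.597). The difference of the R1881 effects was then -1.31 (limma adjusted p = 0.00012), against -0.38 as measured (adjusted p = 0.335).

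EP300-AS1, LAMA5-AS1, ICA1-AS1 and PRRT3-AS1 fell with SRF siRNA under both treatments. EP300 encodes a histone acetyltransferase that acts as a coactivator of the androgen receptor, LAMA5 a laminin chain and ICA1 a protein of secretory vesicles. EP300-AS1 was at 6.73, 6.86 and 6.99 with SRF siRNA against 8.50, 8.70 and 8.49 with control siRNA in R1881, and at 5.97, 6.20 and 6.38 against 8.41, 7.92 and 8.21 in vehicle. It fell by 1.70 in R1881 and by 2.00 in vehicle (SE 0.13 each, limma adjusted p = 5.97e-07 and 2.36e-07). LAMA5-AS1 was at 4.63, 4.72 and 4.54 with SRF siRNA against 6.78, 6.72 and 6.99 with control siRNA in R1881, and at 4.71, 5.05 and 4.40 against 6.58, 6.62 and 6.91 in vehicle. Neither pair overlapped in either gene. LAMA5-AS1 fell by 2.20 and by 1.98 (SE 0.15 each, limma adjusted p = 1.69e-07 and 5.32e-07), and its R1881 changes of -0.09 and 0.12 did not pass the test (adjusted p = 0.625 and 0.501). ICA1-AS1 fell by 2.35 in R1881 and by 1.48 in vehicle (SE 0.11 each), and PRRT3-AS1 by 1.48 and by 2.18 (SE 0.18 each).

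Fewer members rose with SRF siRNA. LINC01133 was at 4.41, 4.13 and 4.47 with SRF siRNA against 3.18, 3.29 and 3.07 with control siRNA in R1881, and at 5.92, 5.68 and 5.65 against 4.14, 3.40 and 4.19 in vehicle. It rose by 1.16 and by 1.84 (SE 0.18 each, limma adjusted p = 0.000148 and 4.59e-06). DHRS4-AS1, opposite a gene of a carbonyl reductase, was at 6.71, 6.80 and 6.74 against 5.10, 5.41 and 5.66 in R1881, and at 7.36, 7.25 and 7.18 against 6.06, 5.76 and 6.22 in vehicle. All SRF siRNA arrays lay above all control siRNA arrays of the same treatment in both genes. DHRS4-AS1 rose by 1.36 and by 1.25 (SE 0.14 each, limma adjusted p = 4.59e-06 and 1.21e-05), and LINC00294 by 1.02 and by 1.48 (SE 0.13 each, adjusted p = 3.49e-05 and 2.37e-06). IQCH-AS1 rose by 1.06 in vehicle (SE 0.18, limma adjusted p = 0.00031). LINC00965 differed by 1.15 there, as a description, since it is a member only through the SRF siRNA arrays with vehicle. In R1881 LINC00965 and IQCH-AS1 changed by 0.58 and 0.55 (limma adjusted p = 0.0352 and 0.0188). With values under 4 set to 4 the LINC00965 change was 0, so it lay within background. Without a filter on low values both lost the call (limma adjusted p = 0.106 and 0.0601), and LINC00965 also with a replicate block (0.0524). Each also lost the call when any of 4 arrays was left out. For LINC00965 these were control siRNA R1881 replicates 1 and 2 (0.42 and 0.48) and SRF siRNA R1881 replicates 2 and 3 (0.49 and 0.57). For IQCH-AS1 they were control siRNA R1881 replicates 1 and 3 (0.43 and 0.46) and SRF siRNA R1881 replicates 2 and 3 (0.42 and 0.49).

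For LINC00844 the SRF siRNA change was -3.98 in R1881, again as a description, and -0.11 ± 0.13 in vehicle (SE, limma adjusted p = 0.49). PEG3-AS1, EPB41L4A-AS1 and GAS6-AS1 were higher with SRF siRNA in R1881, by 1.48, 1.15 and 1.68 (limma adjusted p = 2.39e-06, 1.76e-07 and 3.52e-07). On the dimmer probe set of GAS6-AS1 that change was 0.23 (adjusted p = 0.306). In vehicle the changes of the 3 genes were -0.34, -0.19 and 0.09 (adjusted p = 0.0556, 0.0584 and 0.58). These values come from the same 12 arrays as the differences of R1881 effects and are not separate evidence of them.

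The sense partner of an antisense RNA, taken as the gene whose symbol is left when the suffix is removed, was tested for 99 of the 131 antisense members. Of 76 pairs that RefSeq placed, all 76 were on opposite strands, 60 overlapped and 44 had starts within 1000 bases. The orientation of the probes was not checked, so signal of a pair rests on the platform's assignment. With SRF siRNA, 31 pairs had both genes called in R1881, 11 in the same and 20 in opposite directions, and 28 pairs in vehicle, 10 in the same and 18 in opposite directions. With R1881, 23 pairs had both called under SRF siRNA, 16 in the same and 7 in opposite directions, and 28 under control siRNA, 19 in the same and 9 in opposite directions. Among the 44 pairs with near starts, 16 had both called with SRF siRNA in R1881, 4 in the same and 12 in opposite directions. Among the 32 pairs further apart 9 had both called, 4 and 5. In vehicle the same and opposite counts were 5 and 8 for near starts and 3 and 6 further apart. With R1881 under SRF siRNA they were 9 and 3 for near starts and 3 and 4 further apart. Under control siRNA they were 8 and 3 for near starts and 6 and 3 further apart. All of these are counts with no test. With SRF siRNA 15 antisense members rose and 51 fell in R1881, and 15 rose and 36 fell in vehicle. Of all genes, 33.6% rose and 25.4% fell in R1881, and 30.7% and 25% in vehicle. With R1881 17 antisense members rose and 26 fell under SRF siRNA, and 37 and 26 under control siRNA. Of all genes, 25.5% and 26.9% rose there and 27.7% and 33.8% fell. Whether the pairs depart from these shares was not tested.

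IDH1 rose by 0.99 in R1881 and by 0.52 in vehicle with SRF siRNA (limma adjusted p = 6.88e-08 and 1.57e-05), while IDH1-AS1 fell. The starts of the 2 genes are 775 bases apart and their bodies do not overlap. ICA1, whose start lies 58 bases from that of ICA1-AS1, rose by 0.47 and by 0.36. ZNF232 rose by 0.70 and by 0.68 where ZNF232-AS1 fell by 1.77 and by 0.91, and with R1881 ZNF232 fell by 0.74 under SRF siRNA and by 0.75 under control siRNA where its antisense RNA rose. LAMA5 changed by 0.30 in R1881 (not called) and rose by 0.89 in vehicle. EP300 passed no test, with changes between 0.00 and 0.16 in all 5 comparisons.

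Some pairs moved in the same direction. PEG3 fell by 1.44 with R1881 under SRF siRNA and by 3.48 under control siRNA, with a difference of 2.04, close in size to the -1.72, -3.54 and 1.82 of PEG3-AS1. CBLL1 rose by 1.13 and by 2.20, with a difference of -1.08, beside 0.97, 2.33 and -1.37 for CBLL1-AS1, whose start is 439 bases away. GOLGA4 rose by 0.25 and by 0.69, and FAM13A by 0.46 and by 0.60. MBNL1 fell with SRF siRNA by 1.04 in R1881 and by 0.77 in vehicle. MBNL1-AS1 differed there by -1.60 (a description with no test) and by -0.10 (not called). In contrast, MCM3AP rose by 0.35 and by 0.41 with R1881, opposite to its antisense RNA.

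**Figure D4:**
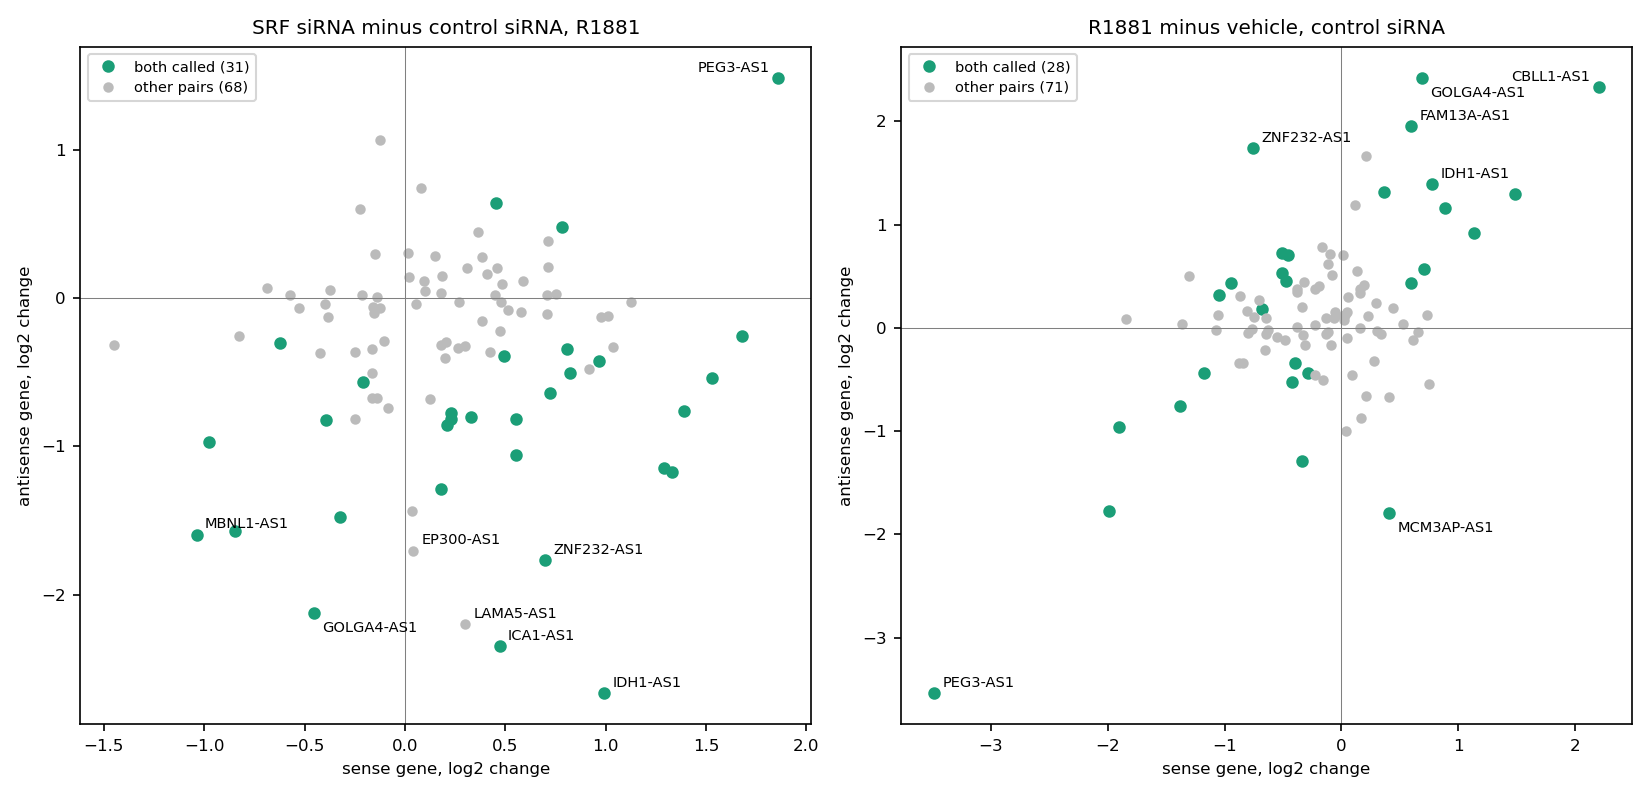
Log2 change of antisense members (vertical axis) against their sense partner (horizontal axis) for 99 pairs, with SRF siRNA in R1881 on the left and with R1881 under control siRNA on the right, and pairs with both genes called in green. On the left 20 of 31 green points lie in the quadrants of opposite direction, on the right 9 of 28.

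MALAT1, an abundant nuclear RNA of splicing speckles, had the brightest probe set of the members. It was at 14.68, 14.33 and 14.39 with R1881 and 15.02, 14.93 and 14.79 with vehicle under SRF siRNA, and at 14.93, 14.89 and 14.89 with R1881 and 14.90, 15.17 and 15.08 with vehicle under control siRNA. The SRF siRNA arrays with R1881 were the lowest, and the control siRNA pair overlapped. With R1881 it fell by 0.45 under SRF siRNA (SE 0.10, limma adjusted p = 0.00296), against a change of -0.15 under control siRNA (adjusted p = 0.227), and the difference of -0.30 ± 0.14 (SE) did not pass the test (adjusted p = 0.164). After quantile normalization the change under SRF siRNA was -0.10 (adjusted p = 0.278). Of its 12 passing probe sets, 8 were called lower with R1881 under SRF siRNA and 2 under control siRNA, 7 were called lower with SRF siRNA in R1881 and 1 in vehicle, and none was called higher. The probe sets target the same transcript and are not replicates.

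**Figure D5:**
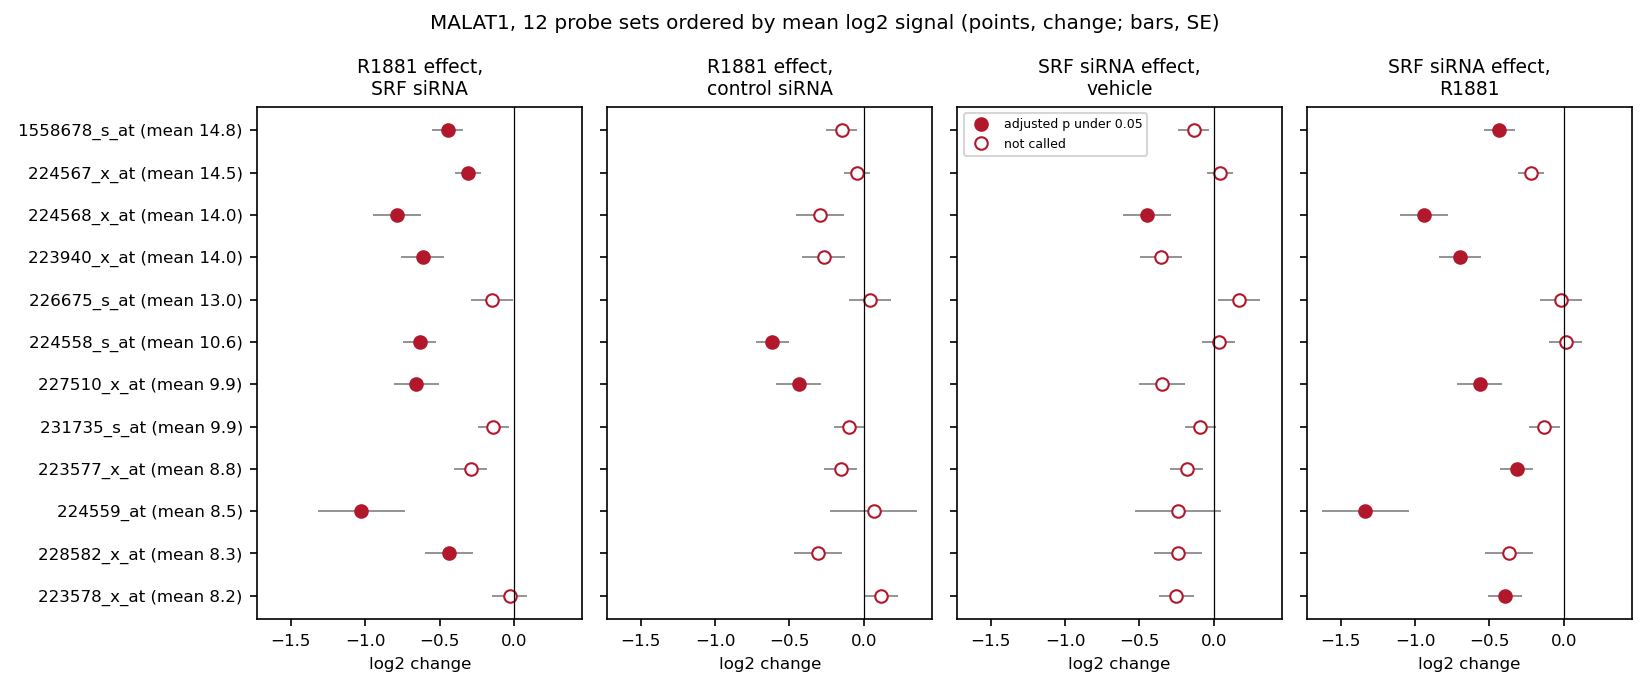
Log2 change and SE of each of the 12 MALAT1 probe sets in 4 comparisons, ordered from the brightest at the top, with filled points at an adjusted p under 0.05. Filled points lie left of 0, 8 in the first panel, 2 in the second, 1 in the third and 7 in the fourth.

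Genes of nuclear speckle proteins were read beside MALAT1. Of 20 tested of 22 listed, 0 rose and 11 fell with R1881 under SRF siRNA, and 0 rose and 12 fell under control siRNA. With SRF siRNA 8 rose and 2 fell in R1881, and 4 rose and 2 fell in vehicle. Of all genes, 25.5% rose and 27.7% fell with R1881 under SRF siRNA and 26.9% and 33.8% under control siRNA, and 33.6% rose and 25.4% fell with SRF siRNA in R1881 and 30.7% and 25% in vehicle. The list's median R1881 change was -0.28 under SRF siRNA and -0.34 under control siRNA, against -0.03 and -0.05 over all genes. The splicing factor gene SRSF3 fell by 0.45 and by 0.70 with R1881, and rose by 0.75 and by 0.50 with SRF siRNA in R1881 and in vehicle. SRSF1 passed no test. These 2 genes were picked as examples after their values were seen.

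The SNHG genes carry small nucleolar RNAs in their introns. SNHG19 was at 9.25, 9.37 and 9.47 with R1881 and 10.36, 10.28 and 10.21 with vehicle under SRF siRNA, and at 9.35, 9.42 and 9.38 with R1881 and 10.68, 10.86 and 10.86 with vehicle under control siRNA. SNHG32 was at 10.04, 10.12 and 10.20 with R1881 and 11.04, 10.88 and 10.79 with vehicle, and at 9.94, 9.83 and 9.91 with R1881 and 10.95, 11.14 and 11.14 with vehicle. In both genes R1881 arrays lay below vehicle arrays under each siRNA. SNHG19 fell by 0.92 and by 1.41 (SE 0.08 each), with a difference of 0.49 ± 0.11 (SE, limma adjusted p = 0.00789), and SNHG32 fell by 0.78 and fell by 1.18 (SE 0.08 each), with a difference of 0.40 ± 0.12 (adjusted p = 0.0298). SNHG17 fell by 0.27 under control siRNA (SE 0.09, limma adjusted p = 0.0171), against -0.04 under SRF siRNA (adjusted p = 0.72).

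Several small changes of the SNHG genes did not survive the loss of an array. The difference of SNHG32 lost its call in 8 of 12 leave-one-out fits, with values from 0.34 to 0.41 in those 8: without control siRNA vehicle replicates 2 or 3, control siRNA R1881 replicates 2 or 3, SRF siRNA vehicle replicates 2 or 3, or SRF siRNA R1881 replicates 2 or 3. Its change with SRF siRNA in R1881 of 0.22 (limma adjusted p = 0.0373) lost it in 5, with 0.19 to 0.25: without any control siRNA R1881 array or SRF siRNA R1881 replicates 2 or 3. The fall of SNHG17 lost it without control siRNA vehicle replicate 2 (-0.25) or control siRNA R1881 replicate 3 (-0.21). SNHG17 rose with SRF siRNA by 0.45 in R1881 (SE 0.09, limma adjusted p = 0.000666), while its change of 0.22 in vehicle (adjusted p = 0.0427) lost the call in 8 of 12 fits, at 0.17 to 0.25: without any control siRNA vehicle or SRF siRNA vehicle array, control siRNA R1881 replicate 1 or SRF siRNA R1881 replicate 3.

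DLEU2 is the host of the microRNAs miR-15a and miR-16-1 on chromosome 13. It was at 5.51, 5.65 and 5.50 with R1881 and 6.86, 6.47 and 6.71 with vehicle under SRF siRNA, and at 5.38, 5.38 and 5.36 with R1881 and 6.70, 6.72 and 6.95 with vehicle under control siRNA. R1881 arrays lay below vehicle arrays under both siRNAs. It fell by 1.13 and by 1.42 (SE 0.10 each, limma adjusted p = 1.92e-06 and 1.66e-07), and the difference of 0.29 ± 0.14 (SE) did not pass the test (adjusted p = 0.168). With SRF siRNA it changed by 0.18 in R1881 and -0.11 in vehicle (adjusted p = 0.148 and 0.374), whereas its dimmest passing probe set rose by 1.69 and by 2.02.

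PCAT6 was at 6.92, 6.92 and 7.39 with R1881 and 6.81, 6.53 and 6.84 with vehicle under SRF siRNA, and at 7.40, 7.43 and 7.70 with R1881 and 6.61, 6.61 and 6.29 with vehicle under control siRNA. R1881 arrays lay above vehicle arrays under both siRNAs. It rose by 1.01 under control siRNA (SE 0.15, limma adjusted p = 8.13e-05), against 0.35 under SRF siRNA (adjusted p = 0.0656). With the GAPDH covariate the rise was 0.46 and lost its call (limma adjusted p = 0.114). The difference of -0.66 ± 0.21 (SE, limma adjusted p = 0.0379) lost its call in 7 of 12 leave-one-out fits, with -0.70 to -0.55: without control siRNA vehicle replicate 3, control siRNA R1881 replicates 2 or 3, SRF siRNA vehicle replicates 1 or 3, or SRF siRNA R1881 replicates 1 or 2. With SRF siRNA in R1881 its change of -0.44 (limma adjusted p = 0.0223) lost the call without control siRNA R1881 replicate 3 (-0.34) or SRF siRNA R1881 replicates 1 or 2 (-0.36 each). PCAT7 passed no test, with means of 4.39 ± 0.25 with R1881 and 4.24 ± 0.10 with vehicle under SRF siRNA and 4.26 ± 0.18 and 4.38 ± 0.10 under control siRNA (SD, n = 3 each).

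The brightest members also include ST8SIA6-AS1 and ZNF667-AS1. ST8SIA6-AS1 fell with SRF siRNA by 0.52 in R1881 and by 0.42 in vehicle (SE 0.10 each, limma adjusted p = 0.000619 and 0.00325). It fell with R1881 by 0.35 under SRF siRNA (adjusted p = 0.00896). Its change of -0.25 under control siRNA (adjusted p = 0.0403) lost the call in 6 of 12 leave-one-out fits, with -0.27 to -0.15: without control siRNA vehicle replicate 3, any control siRNA R1881 array, SRF siRNA vehicle replicate 2 or SRF siRNA R1881 replicate 2. ZNF667-AS1 fell with SRF siRNA by 0.35 and by 0.44 (SE 0.06 each, limma adjusted p = 0.000311 and 5.85e-05), while ZNF667, whose start is 529 bases away, rose by 0.80 and by 0.48. ZNF667-AS1 rose with R1881 by 0.27 under SRF siRNA (limma adjusted p = 0.00221), and its change of 0.18 under control siRNA (adjusted p = 0.0208) lost the call without control siRNA vehicle replicate 1 or control siRNA R1881 replicate 2 (0.15 and 0.16).

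Of the 33 members with more than 1 passing probe set, only LINC00665 and LINC00667 had probe sets called in opposite directions. With SRF siRNA LINC00665 changed by -0.36 in R1881 and -0.79 in vehicle on its brighter probe set (SE 0.11 each, limma adjusted p = 0.0138 and 7.28e-05) and by 0.37 and 0.31 on the other. The first of these lost its call without SRF siRNA R1881 replicate 2 (-0.30). LINC00667 changed by -0.34 in R1881 (SE 0.06, limma adjusted p = 0.000449) and by 0.47 on another probe set. No direction is given for these genes.

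Across the 4 comparisons with R1881 or SRF siRNA, 49 members (25.3%) were called in none, against 13.3% of all genes, and 23 (11.9%) in all 4, against 21.3%. Among the 23 were GOLGA4-AS1, HECW2-AS1, IDH1-AS1 and ZNF232-AS1, which were higher with R1881 and lower with SRF siRNA in each comparison. With values under 4 set to 4 the SRF siRNA change of HECW2-AS1 in vehicle was -0.03 (limma adjusted p = 0.917), and that of ZNF232-AS1 lost its call with the mean of its probe sets (-0.33, adjusted p = 0.0901). On the dimmest probe set of ZNF232-AS1 the SRF siRNA changes were -0.19 in R1881 and 0.25 in vehicle, neither called (limma adjusted p = 0.582 and 0.471). EP300-AS1 and PRRT3-AS1 had the same signs, but their R1881 changes under control siRNA of 0.38 and 0.55 (limma adjusted p = 0.0282 and 0.0203) rested on single arrays. EP300-AS1 lost the call without control siRNA vehicle replicates 2 or 3 (0.25 and 0.39) or control siRNA R1881 replicate 2 (0.31), and PRRT3-AS1 without control siRNA vehicle replicate 3 (0.38) or control siRNA R1881 replicates 1 or 3 (0.52 and 0.53). LINC01133 and DHRS4-AS1 had the opposite signs, lower with R1881 and higher with SRF siRNA. Their R1881 changes under control siRNA lost the call with the GAPDH covariate (-0.41 and -0.49, limma adjusted p = 0.374 and 0.176), and that of LINC01133 also with values under 4 set to 4 (-0.11, adjusted p = 0.37).

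A list of 35 other long noncoding RNAs outside the naming rule held 15 tested genes. With R1881 3 rose and 10 fell under SRF siRNA, and 3 rose and 7 fell under control siRNA. With SRF siRNA 3 rose and 9 fell in R1881, and 2 rose and 7 fell in vehicle. Of all genes, 25.5% and 26.9% rose and 27.7% and 33.8% fell in the first 2 comparisons. In the last 2, 33.6% and 30.7% rose and 25.4% and 25% fell. The list's median changes were -0.38 and -0.31 with R1881, against -0.03 and -0.05 over all genes, and -0.46 and -0.22 with SRF siRNA, against 0.06 and 0.04. PART1, named as prostate androgen-regulated transcript, was at 6.13, 6.13 and 6.27 with R1881 and 6.06, 5.92 and 5.79 with vehicle under SRF siRNA, and at 7.63, 7.70 and 7.78 with R1881 and 6.13, 6.04 and 6.10 with vehicle under control siRNA. It rose by 0.25 and by 1.61 (SE 0.08 each, limma adjusted p = 0.02 and 7.48e-09), and the difference was -1.35 ± 0.12 (SE, adjusted p = 8.67e-06). DRAIC, which is described as lowered by androgen in prostate cancer cells, was at 6.93, 6.53 and 6.81 with R1881 and 8.51, 8.67 and 8.53 with vehicle under SRF siRNA, and at 7.02, 6.99 and 7.06 with R1881 and 7.16, 6.56 and 6.64 with vehicle under control siRNA. The SRF siRNA arrays with vehicle stood above the other 9. It fell by 1.81 with R1881 under SRF siRNA (SE 0.14, limma adjusted p = 6.09e-07), against 0.23 under control siRNA (adjusted p = 0.179), and the difference was -2.05 ± 0.20 (SE, adjusted p = 2.86e-05).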

How the data were processed

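RNA of LNCaP cells was measured on 12 Affymetrix arrays, 3 for each of 4 groups. The deposited values are log2 signals that the authors made with GCRMA, per the submitters' processing notes, and the version is not given in the sources used here. GCRMA subtracts a background modelled from probe sequence and normalizes between arrays, so values near 3 carry little information on level and large folds from them depend on that model. The number of arrays limits the precision.

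Of 54675 probe sets, 41091 had 1 gene symbol in GEO's platform annotation, 1801 several and 11777 none. Probe sets with 1 symbol and a log2 signal above 4 on at least 3 arrays were kept, the one with the highest mean stood for its gene, and control probe sets were left out. A model with 4 group means was fitted to all 10265 genes with limma 3.58.1 (R 4.3.3), with empirical Bayes moderation and Benjamini-Hochberg adjustment, and genes with an adjusted p under 0.05 were called. The 5 contrasts were: R1881 under each siRNA, SRF siRNA under each treatment, and the difference of the R1881 effects. The steps were tested on simulated data. Promoters and gene positions came from RefSeq (GRCh38.p14), and figures were drawn with matplotlib 3.10.9.

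Named members are, for each contrast, the 5 called members with the largest change each way, then MALAT1, NEAT1, PCA3, DLEU2, the PCAT members, the 5 brightest members, the 5 brightest SNHG genes, those nearest the filter, those whose probe sets were called in opposite directions, and the sense genes of named antisense RNAs. The members, lists and rules were chosen with earlier results of these data known. Deviations of same-numbered arrays correlated at -0.214 to 0.0994 over 18 pairs, and those of differently numbered arrays at -0.0741 to 0.207 over 36. The 2 above 0.1 were control siRNA vehicle replicate 1 with SRF siRNA vehicle replicate 3 (0.207), and replicate 3 with replicate 1 (0.199). Such correlations cannot show whether arrays were paired, and the main model used no pairing. Alternatives were other filters, probe set rules, scalings, thresholds and model settings, a replicate block, and each array left out in turn.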

Additional observations from a re-analysis of the deposited data

Results flagged for a closer look

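The effect of R1881 differed between SRF siRNA and control siRNA for 18 named members and 5 of the listed other long noncoding RNAs. Each was called by a test of the difference itself (limma, adjusted p under 0.05 over all genes). For LINC00844 and MBNL1-AS1 among the 18 that call is a description, as below. The difference was also called, as positive, for 2 of 19 paraspeckle and 4 of 20 nuclear speckle protein genes, where 13.2% of all genes were. Groups of 3 arrays were too small to look for single outlying arrays.

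The difference, SRF siRNA minus control siRNA, was negative for CBLL1-AS1 (-1.37), GOLGA4-AS1 (-0.90) and ZNF232-AS1 (-0.86), which rose under both siRNAs, and for LINC00963 (-1.35), which fell under SRF siRNA and rose under control siRNA. It was negative for ICA1-AS1 (-0.87) and PCAT6 (-0.66), which rose under control siRNA and were not called under SRF siRNA. For LINC00844 (-3.86) and MBNL1-AS1 (-1.50), members only through the control siRNA arrays with R1881, it is a description. For LINC00667 it was -0.44 on the brightest probe set and -0.09 on the dimmest (limma adjusted p = 0.86), so no direction is given. LINC00161 fell further under SRF siRNA, with a difference of -1.41.

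Members with a smaller fall under SRF siRNA, or with no called fall there, had positive differences. These were PEG3-AS1 (1.82), GAS6-AS1 (1.59), EPB41L4A-AS1 (1.34), MCM3AP-AS1 (1.25), LINC00623 (1.14), SNHG19 (0.49) and SNHG32 (0.40). LINC01296 rose under SRF siRNA, with a difference of 1.37.

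Among the other long noncoding RNAs the differences were -2.05 for DRAIC, -1.35 for PART1, 0.82 for MIR99AHG, 0.65 for TP53TG1 and 0.54 for ZFAS1, a small nucleolar RNA host.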

How the results depend on the processing

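Of 2481 values of named genes under another setting, 2284 kept direction and side of the threshold, 155 lost the call, 28 gained it and 14 turned. All 14 came from the choice of probe set, and their cause was not tested. With the mean of the passing probe sets, the SRF siRNA change in vehicle was 0.38 for EPB41L4A-AS1 and 0.70 for DLEU2, and in R1881 it was 0.0039 for LINC00665 and 0.046 for LINC00667. With the dimmest passing probe set, the R1881 change under control siRNA was -0.0088 for LINC00667, and the difference of R1881 effects was -0.050 for EPB41L4A-AS1 and -0.16 for GAS6-AS1. The SRF siRNA change in vehicle was then 0.25 for ZNF232-AS1, 0.94 for EPB41L4A-AS1, 2.02 for DLEU2 and 0.31 for LINC00665, and in R1881 it was 0.065 for LINC00963, 0.37 for LINC00665 and 0.0059 for LINC00667.

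Counts of called members below run in the order R1881 under SRF siRNA, R1881 under control siRNA, difference, SRF siRNA in vehicle, SRF siRNA in R1881. At 2-fold or more they were 19, 27, 14, 23 and 27, where 10.7%, 14.1%, 5.01%, 9.28% and 11.6% of all genes were called. At an adjusted p under 0.01 the difference was called for 19, where 13.3% of all genes were. With the GAPDH covariate, chosen after seeing the data, R1881 under control siRNA was called for 50 and the difference for 23. Of all genes 38.2% and 18.6% were called there. Leaving out each array gave 60 to 72, 90 to 104, 31 to 42, 70 to 83 and 81 to 99. The shares over all genes are not given for these fits. Of 136 called values of named members, 120 kept the call in all 12 of these fits. With a replicate block the counts were 68, 101, 33, 80 and 94, although whether equal numbers mark paired arrays is not known. Of all genes 51.8%, 59.9%, 21.4%, 54.4% and 57.7% were called with the block. Signal near background limits the members below 4: with values under 4 set to 4, the R1881 change of LINC00844 under SRF siRNA was 0.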

Other observations

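Proteins of paraspeckles, nuclear bodies built on the long noncoding RNA NEAT1, were measured through 19 of 20 listed genes. With R1881 2 rose and 13 fell under SRF siRNA, and 2 rose and 12 fell under control siRNA, where 25.5% and 26.9% of all genes rose and 27.7% and 33.8% fell. The medians were -0.45 and -0.55 against -0.03 and -0.05 over all genes. With SRF siRNA 10 rose in R1881 and 15 in vehicle, none fell in either, where 33.6% and 30.7% of all genes rose and 25.4% and 25% fell, and the medians were 0.30 and 0.33 against 0.06 and 0.04 over all genes. The core proteins NONO, SFPQ and PSPC1 fell with R1881 by 0.58, 0.49 and 0.51 under SRF siRNA and by 0.76, 0.55 and 0.87 under control siRNA. SFPQ and PSPC1 rose with SRF siRNA, by 0.49 and 0.66 in R1881 and by 0.42 and 0.30 in vehicle, while NONO changed by 0.19 and 0.02 and passed neither test. Calls are limma adjusted p under 0.05, and the part of RNA integrity in these counts was not tested.

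Of the 15 tested genes of the fixed list, DANCR, JPX, TUG1, CRNDE and MIR99AHG were called in all 4 pairwise comparisons, as were 21.3% of all genes. DANCR fell with R1881 by 0.94 under SRF siRNA and by 0.75 under control siRNA, and with SRF siRNA by 0.52 in R1881 and by 0.33 in vehicle. JPX, a noncoding gene of the X-inactivation centre, fell by 0.68, 0.48, 1.43 and 1.23 in the same order. CRNDE fell by 0.58, 0.42, 0.46 and 0.29 in that order too. TUG1 fell with R1881 by 0.30 and by 0.37 and rose with SRF siRNA by 0.43 and by 0.36. MIR99AHG fell with R1881 by 0.43 and by 1.25, and with SRF siRNA it rose by 0.49 in R1881 and fell by 0.33 in vehicle.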
